A study of Mus musculus with 30 samples.

Results

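The 7 complex I mRNAs of the mouse mitochondrial genome, mt-Nd1, mt-Nd2, mt-Nd3, mt-Nd4, mt-Nd4l, mt-Nd5 and mt-Nd6, were examined in sperm of males injected with tesaglitazar. They were taken by name from 2 tables of sperm RNA. All 7 were among the 16242 features quantified 24 h after the last injection, and 3 of the 7 (mt-Nd1, mt-Nd4 and mt-Nd5) were among the 3082 features quantified 46 days after it. The other 4 were not analysed at 46 days.

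The study asked whether activating PPAR, a nuclear receptor of lipid metabolism, leaves a trace in sperm RNA. C57Bl/6J males aged 3 months were given intraperitoneal tesaglitazar, which activates both PPARα and PPARγ, at 10 μg/kg (Tesa-inj), or DMSO in saline (Vehicle-inj), 2 times per week for 4 weeks. Sperm was taken from the cauda epididymis by swim-up followed by lysis of somatic cells. Polyadenylated RNA was sequenced at 24 h (4 Tesa-inj and 4 Vehicle-inj libraries), and total RNA depleted of rRNA at 46 days (7 and 7), so that time and library type cannot be told apart between the tables. Libraries held 15337589 to 27709990 counts at 24 h and 4538102 to 13513816 at 46 days. The study's methods count n in animals, and the labels number the libraries without naming the males. For Tesa-inj in the later table the study gives a smaller n than the libraries used here, and the sources used here do not name a library that was left out, so the fits below are not those of the study.

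Complex I, the NADH dehydrogenase of the respiratory chain, passes electrons from NADH to ubiquinone and pumps protons across the inner mitochondrial membrane. The mitochondrial genome encodes core subunits of its membrane arm, while its remaining subunits are encoded in the nucleus. Both strands of that genome are transcribed into long precursors from which the mRNAs are cut, and in sperm the mitochondria lie in the midpiece of the tail.

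The subunits fall into groups by role. ND2, ND4 and ND5 resemble antiporters and line the proton-pumping part of the membrane arm, ND1 lies beside the ubiquinone site, and ND3, ND4L and ND6 lie in the part of the arm nearest to it. In the GRCm38.p6 RefSeq annotation, in which all 7 members were matched, mt-Nd1 lies on chromosome MT at bases 2751 to 3707, mt-Nd2 at 3914 to 4951 and mt-Nd3 at 9459 to 9806. Next come mt-Nd4l at 9877 to 10173 and mt-Nd4 at 10167 to 11544, genes that overlap by 7 bases and share an RNA. They are followed by mt-Nd5 at 11742 to 13565 and by mt-Nd6 at 13552 to 14070, which overlap by 14 bases and are read from opposite strands.

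At 24 h, mt-Nd1 and mt-Nd4 were among the abundant features of the libraries of polyadenylated RNA. TMM-scaled levels of complex I mRNAs in Tesa-inj lay within the range of Vehicle-inj apart from mt-Nd6 in 1 library. Together they took 0.442% ± 0.150 (SD, n = 4) of all counts in Tesa-inj libraries, against 0.533% ± 0.349 (SD, n = 4) for Vehicle-inj. The lowest library was Vehicle-inj 4, with 0.123%, and the highest was Vehicle-inj 6, with 0.947%, so the Vehicle-inj libraries enclosed all 4 Tesa-inj libraries. Of the counts on mitochondrially encoded mRNAs alone, complex I took 14.9% to 16.5% in Tesa-inj and 15.4% to 16.6% in Vehicle-inj.

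The level of mt-Nd4, an antiporter-like subunit, in CPM (counts per 1e6 counts of a library) scaled by TMM, a normalization between libraries, was 2824, 1266, 979 and 1309.6 in Tesa-inj libraries 1, 3, 5 and 7. It was 1996, 509.6, 3305 and 2009 in Vehicle-inj libraries 2, 4, 6 and 8. Vehicle-inj 6 was highest and Vehicle-inj 4 lowest, with every Tesa-inj library between them. The level of mt-Nd2 ran from 150.3 to 438 CPM in Tesa-inj and from 79.98 to 516 in Vehicle-inj, and that of mt-Nd5 from 163 to 401 and from 141 to 439. Both kept Tesa-inj inside the Vehicle-inj range.

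The level of mt-Nd1 was 3438, 1446, 1549 and 1526 CPM in Tesa-inj libraries 1, 3, 5 and 7, and 2471, 709, 4287 and 2607 in Vehicle-inj libraries 2, 4, 6 and 8. Tesa-inj library 1 stood above the other 3 of its group, and the groups overlapped. The level of mt-Nd3 was 91.1, 51.3, 112 and 93.3 CPM in the same Tesa-inj libraries and 204, 43.3, 219.6 and 127 in the Vehicle-inj libraries. Of the Vehicle-inj libraries, 3 were above every Tesa-inj library for mt-Nd3 and library 4 was below them all. The level of mt-Nd4l ran from 26.8 to 86.9 CPM in Tesa-inj and from 22.7 to 95.6 in Vehicle-inj. The level of mt-Nd6 was 39.9, 19.7, 20.6 and 9.36 CPM in Tesa-inj and 45.9, 15.1, 38.5 and 19.6 in Vehicle-inj. Tesa-inj library 7 was below every Vehicle-inj library for mt-Nd6, and on this scale no Tesa-inj library was above every Vehicle-inj library for any member. The shares of all features with the patterns of mt-Nd3 and mt-Nd6 were not computed, so these library counts are descriptions only.

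**Figure D1:**
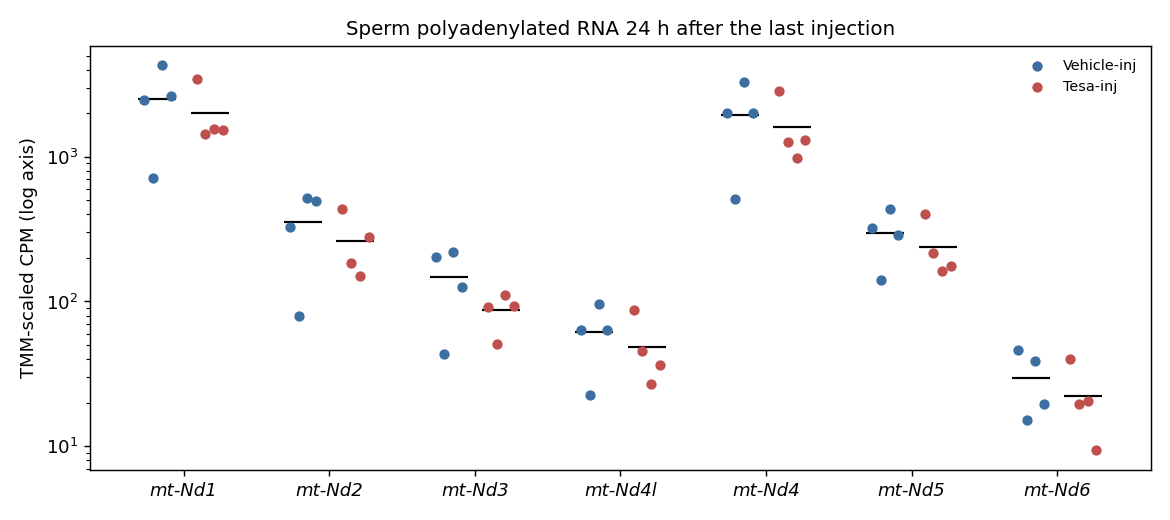
TMM-scaled CPM (log axis) of the 7 complex I mRNAs in sperm polyadenylated RNA 24 h after the last injection; each point is a library (4 Vehicle-inj in blue, 4 Tesa-inj in red) and each line a group mean. The groups overlap for each member, with mt-Nd1 between 1446 and 3438 in Tesa-inj and between 709 and 4287 in Vehicle-inj.

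In the quasi-likelihood test of edgeR, with p-values adjusted by Benjamini-Hochberg, 0 of the 7 members passed an adjusted p of 0.05 at 24 h, as did 0% of the 13752 features tested, of which 372 had an unadjusted p under 0.05. The exact test of edgeR and DESeq2 also called 0 members. The log2 fold change (Tesa-inj over Vehicle-inj) with the smallest p was that of mt-Nd3, -0.77 (standard error 0.45, adjusted p = 1.00 in edgeR). Those of the other members ran from -0.44 (standard error 0.53) for mt-Nd2 to -0.29 (standard error 0.53) for mt-Nd4. All 7 estimates were below 0, as were 52.2% of all features tested, and each was smaller than 2 standard errors. Without Vehicle-inj library 6, the highest, the estimates of mt-Nd1 and mt-Nd4 were 0.044 and 0.084. Without Tesa-inj library 1, the highest of its group for 6 members, estimates ran from -0.83 (standard error 0.46) for mt-Nd6 to -0.67 (standard error 0.37) for mt-Nd5. Without Vehicle-inj library 4, the lowest, mt-Nd3 had -1.06 (standard error 0.31), mt-Nd2 -0.74 (standard error 0.38) and mt-Nd1 -0.63 (standard error 0.40), with adjusted p = 1.00 in edgeR for each.

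The 6 other mitochondrially encoded mRNAs had log2 fold changes from -0.64 to -0.18 at 24 h. The rRNAs mt-Rnr1 and mt-Rnr2 had -0.94 (standard error 0.38) and -0.93 (standard error 0.39), with all 4 Tesa-inj libraries below every Vehicle-inj library in TMM-scaled CPM, a pattern met by 1.95% of features tested. By library totals 3 of 4 were below, and by rank within the library 2 of 4. Neither passed the adjusted threshold in edgeR (adjusted p = 1.00). No complex I mRNA had all 4 below on any of these scales. As a ratio to mt-Rnr2 counts in the same library, a scale chosen after the values had been seen, 2 of 4 Tesa-inj libraries were above every Vehicle-inj library for mt-Nd2 and mt-Nd6 and 1 of 4 for the other 5 members. As mt-Rnr2 itself was lower in Tesa-inj, 78.1% of all features tested had at least 2 such libraries and 92.9% at least 1.

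By summed counts, mt-Nd1 ranked 32 of 16242 features in Tesa-inj at 24 h and 24 in Vehicle-inj, and mt-Nd4 ranked 35 and 29. The ranks of mt-Nd2 were 195 and 107, and those of mt-Nd5 were 225 and 152. The short mRNAs ranked lower, mt-Nd3 at 528 and 329 and mt-Nd4l at 1048 and 707. The lowest was mt-Nd6, at 2578 and 1698. Of all complex I counts at 24 h, mt-Nd1 held 46.7%, mt-Nd4 37.0% and mt-Nd6 0.482%.

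Counts also scale with length, so levels were compared between members as CPM of the library total (without TMM) per kb of gene. On that scale the Vehicle-inj medians were 2560.4 for mt-Nd1, 1396 for mt-Nd4, 436 for mt-Nd3, 387 for mt-Nd2, 206 for mt-Nd4l, 159 for mt-Nd5 and 55.7 for mt-Nd6. Gene spans were used rather than effective lengths, which understates short genes such as mt-Nd4l. Whether the selection of polyadenylated RNA kept all members equally was not tested, so the order holds for these libraries only. In each of the 8 libraries mt-Nd1 was above mt-Nd4, mt-Nd4 above mt-Nd3, mt-Nd2 above mt-Nd4l and mt-Nd5 above mt-Nd6. The neighbours mt-Nd3 and mt-Nd2 did not keep their order, with mt-Nd3 higher in 5 of 8 libraries, and mt-Nd4l was above mt-Nd5 in 7 of 8. Among all 13 mitochondrially encoded mRNAs per kb, mt-Nd1 ranked 4 or 5, mt-Nd4 ranked 7 and mt-Nd6 ranked 13 in each library.

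**Figure D2:**
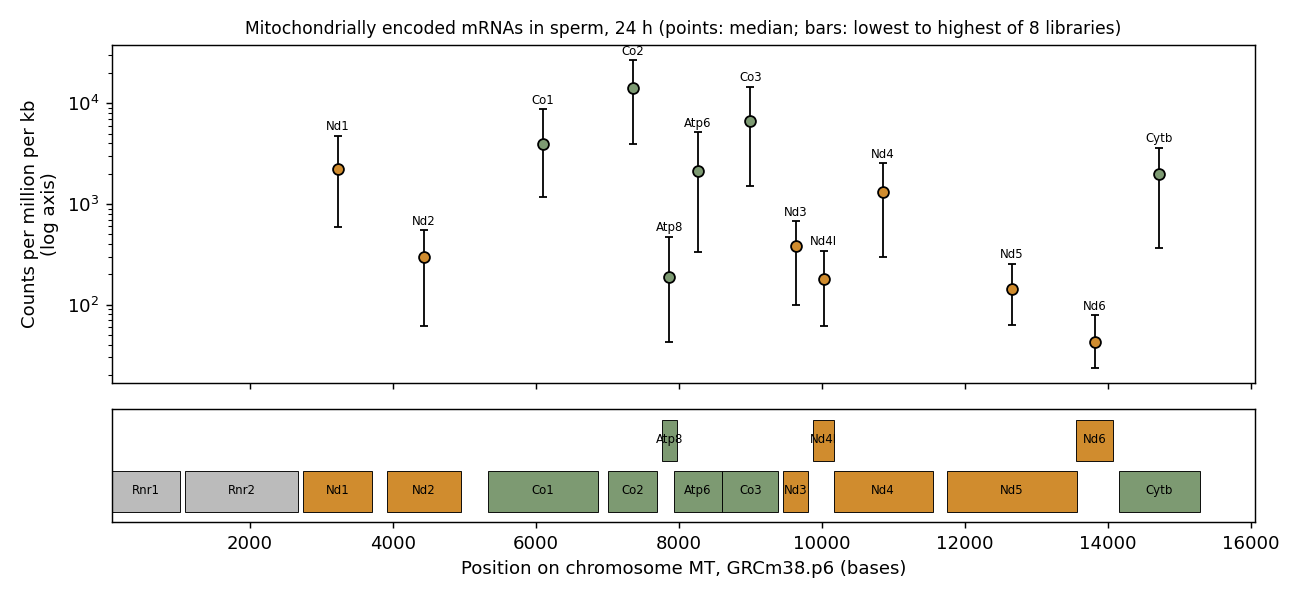
CPM of library totals per kb of gene (log axis) for the 13 mRNAs of the mitochondrial genome in sperm polyadenylated RNA at 24 h. Below is a map of mouse chromosome MT in bases, with overlapping genes drawn on an upper row. Complex I genes are in orange, other mRNA genes in green and rRNA genes in grey. Points are medians and bars run from the lowest to the highest of 8 libraries; mt-Nd1 has the highest median of complex I, 2249, and mt-Nd6 the lowest, 43.1.

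Ratios within a library do not depend on scaling between libraries. Per kb, the ratio of mt-Nd1 to mt-Nd4 was 1.64 to 2.28 in Tesa-inj and 1.78 to 2.00 in Vehicle-inj. On it 3 of 4 Tesa-inj libraries were below every Vehicle-inj library and 1 was above. The ratio of mt-Nd2 to mt-Nd4 was 0.194 to 0.281 in Tesa-inj and 0.207 to 0.328 in Vehicle-inj, also with 3 of 4 below. For the other members 0 to 2 were below. The share of all features with such counts was not computed. For mt-Nd4l, which shares an RNA with mt-Nd4, the ratio was 0.127 to 0.166 and 0.134 to 0.207. Over all 8 libraries the ratio spanned 4.15-fold for mt-Nd6 and 3.54-fold for mt-Nd3, more than for the other members. For mt-Nd3 it was 0.128 to 0.452 in Tesa-inj and 0.250 to 0.405 in Vehicle-inj, and its deposited counts were whole numbers (within 0.001) in 3 of 8 libraries. Salmon can give such a fraction where reads are shared with another feature, so the level of mt-Nd3 is uncertain. The deposited counts of mt-Nd1, mt-Nd4, mt-Nd4l and mt-Nd6 were whole in 8 of 8 libraries.

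At 46 days, the 3 members in the table had higher TMM-scaled levels in most Tesa-inj libraries, with library KG8-12 far above the rest, and 0 of the 3 passed the adjusted threshold of the main test. Several libraries of this table stood apart. KG8-02 (Tesa-inj) held 158820 counts outside the 5 most abundant features and had a TMM factor of 0.0981. KG8-14 (Vehicle-inj) held 7119414 and had a factor of 8.15. KG8-12, KG8-04 and KG8-05 (Tesa-inj) had factors of 0.316, 0.348 and 0.462, and the lowest factor in Vehicle-inj was 0.555 (KG8-06). Libraries 11 to 14 held 14027 to 30760 counts of Lars2, against 771 to 2396 in libraries 1 to 10.

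The level of mt-Nd4 at 46 days was lowest at 1.21 CPM, with a median of 6.47 and a highest value of 627, in 7 Tesa-inj libraries. In 7 Vehicle-inj libraries it was lowest at 0.656, with a median of 1.87 and a highest value of 2.50. KG8-12 had 627 CPM and KG8-02 had 51.2, and 6 of 7 Tesa-inj libraries were above every Vehicle-inj library, the exception being KG8-11. Among the features tested, 0.209% had at least 6 such libraries. These levels rest on few reads, from 20 to 58 counts in the Tesa-inj libraries other than KG8-12, which had 1586, and from 3 to 194 in Vehicle-inj.

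The level of mt-Nd1 was lowest at 1.72 CPM, with a median of 6.37 and a highest value of 491, in Tesa-inj, and lowest at 0.704, with a median of 1.85 and a highest value of 3.72, in Vehicle-inj. The highest value was again KG8-12, followed by KG8-02 with 38.4, and 5 of 7 Tesa-inj libraries were above every Vehicle-inj library (1.22% of features had at least 5). The level of mt-Nd5, an antiporter-like subunit, was lowest at 1.80 CPM, with a median of 9.40 and a highest value of 401, in Tesa-inj, and lowest at 2.12, with a median of 3.24 and a highest value of 6.99, in Vehicle-inj. For mt-Nd5, 4 of 7 Tesa-inj libraries were above every Vehicle-inj library, with 5.30% of features having at least 4. KG8-11 was below every Vehicle-inj library for mt-Nd5. The 4 above were KG8-02, KG8-04, KG8-05 and KG8-12, the libraries with the 4 lowest TMM factors at 46 days. Each of them was also above for mt-Nd1 and mt-Nd4. The part of library composition in these levels was not tested.

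**Figure D3:**
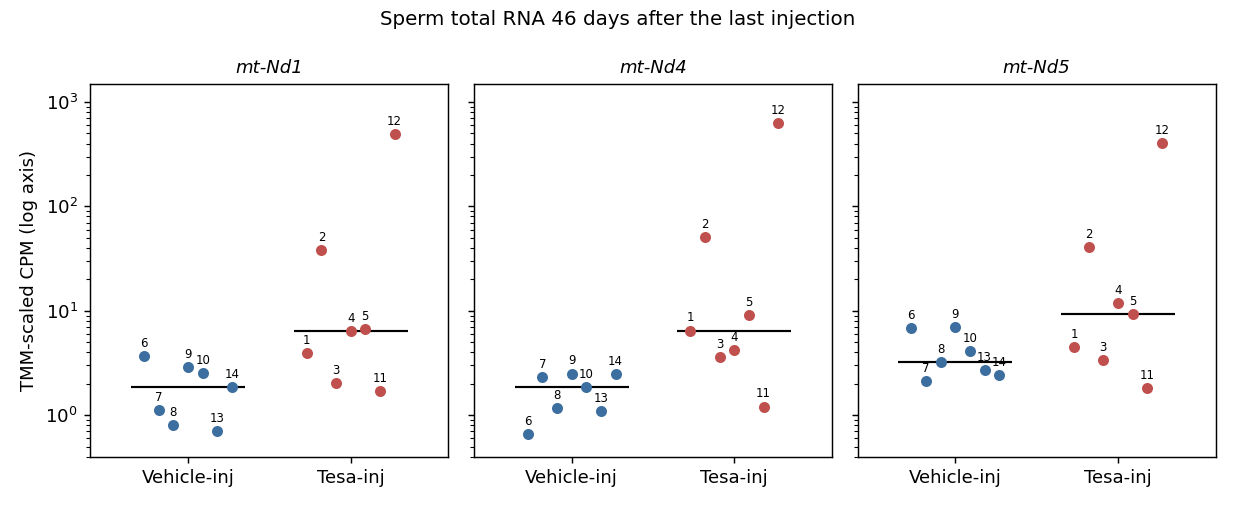
TMM-scaled CPM (log axis) of mt-Nd1, mt-Nd4 and mt-Nd5 in sperm total RNA 46 days after the last injection; each point is a library labelled with its number (7 Vehicle-inj in blue, 7 Tesa-inj in red) and each line a group median. Library 12 has 491, 627 and 401 CPM, library 2 is next with 38.4, 51.2 and 40.7, and the other Tesa-inj libraries lie between 1.21 and 11.9.

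The scaling sets how many libraries stand above the Vehicle-inj range. As CPM of the library total, without TMM, only KG8-12 was above every Vehicle-inj library, for each of the 3 members, while 2.86% of features had at least 1 such library. On that scale the medians of Tesa-inj and Vehicle-inj were 5.02 and 2.32 for mt-Nd4 and 3.77 and 2.69 for mt-Nd1, and for mt-Nd5 the order turned, with 4.35 and 5.46. By rank within the library, which needs no scaling factor, 6, 5 and 4 of 7 Tesa-inj libraries were above for mt-Nd4, mt-Nd1 and mt-Nd5. The shares of features with at least as many were 0.523%, 2.44% and 7.36%. Ranks still depend on the composition of a library. KG8-02 had 623 features over 20 counts and KG8-10 (Vehicle-inj) had 3013, so that 33 and 38 counts of mt-Nd1 ranked 429 and 2595. As a ratio to mt-Rnr2 counts in the same library, 5, 5 and 4 of 7 were above for mt-Nd4, mt-Nd1 and mt-Nd5. Of the features tested, 0.105% had at least 5 and 0.209% at least 4. The 3 features with at least 5 were mt-Nd1, mt-Nd4 and mt-Cytb, an mRNA outside complex I, so this share is made of members and mt-Cytb. These scales were chosen after the values had been seen.

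In edgeR's quasi-likelihood test, 0 of the 3 members passed an adjusted p of 0.05 at 46 days, as did 0% of the 2866 features tested, of which 152 had an unadjusted p under 0.05 (122 of them higher in Tesa-inj, 4.26% of all tested). The log2 fold change of mt-Nd4 was 5.79 (standard error 1.34, adjusted p = 0.604 in edgeR), with the smallest p in the table. All 3 estimates were above 0, as were 46% of features tested. That of mt-Nd1 was 5.37 (standard error 1.31) and ranked 3 by p, and that of mt-Nd5 was 4.08 (standard error 1.11) and ranked 8, with the same adjusted p. DESeq2 called 0 members. The exact test of edgeR, the test named in the study's methods, on all 14 libraries called all 3, with adjusted p-values of 0.00372 for mt-Nd4, 0.00832 for mt-Nd1 and 0.0246 for mt-Nd5, and 0.488% of features. It also called all 3 without any 1 of the Tesa-inj libraries other than KG8-12, with 0.536% to 0.769% of features called in those fits. Without KG8-12 it called 0 members and 0.0354% of features. The count filter took both groups together, and the Vehicle-inj libraries alone would not have brought mt-Nd1 or mt-Nd4 past it. With no count filter the quasi-likelihood estimates were 5.79 for mt-Nd4 and 5.37 for mt-Nd1, with 0 members called in edgeR.

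The size of the edgeR estimates depended on KG8-12 and on the scaling. On library totals without TMM, with all libraries kept, mt-Nd4 had 2.59 (standard error 0.99) and mt-Nd1 2.45 (standard error 1.00), mt-Nd5 was lower than both, and 0 were called in edgeR. Without KG8-12, the log2 fold changes came to 2.37 for mt-Nd4 (standard error 0.72), 1.92 for mt-Nd1 (standard error 0.70) and 1.25 for mt-Nd5 (standard error 0.63). The exact test without KG8-12 gave mt-Nd4 an adjusted p of 0.0556 in edgeR, and 0.0545 when run on RefSeq gene names only. Both are just above the threshold, and adjustment within the classes of features used by the study was not run. Without KG8-02 alone the estimates were 5.95 for mt-Nd4, 5.54 for mt-Nd1 and 4.22 for mt-Nd5, and without both libraries 1.34, 1.03 and 0.57. DESeq2 gave 2.60, 2.09 and 1.36 on all libraries, already below the edgeR estimates on the same libraries. Without KG8-12 it gave 2.76, 2.25 and 1.48 (adjusted p = 0.0582 in DESeq2 for mt-Nd4). How much KG8-12 counted in the DESeq2 fit on all libraries was not examined, so these fits do not show stability without it. On all libraries limma voom with quality weights gave 1.26, 1.07 and 0.57. Each of these estimates was above 0.

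Within libraries 1 to 10, log2 fold changes of 2.70, 2.00 and 1.32 were estimated for mt-Nd4, mt-Nd1 and mt-Nd5, with standard errors of 0.73, 0.75 and 0.63, and with a term for libraries 11 to 14 the estimates were 4.10, 3.54 and 2.64. Libraries 11 to 14 alone, with 2 per group, gave 7.13 (standard error 2.12), 7.24 (standard error 2.03) and 6.00 (standard error 1.83), with 0 called in edgeR. In them mt-Nd4 had 1.21 and 627 CPM in the Tesa-inj libraries and 1.11 and 2.47 in the Vehicle-inj libraries.

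Markers of sperm and late spermatids were all in the 46-day table (12 of 12, the most abundant being Prm2). Their summed level was 402 CPM in KG8-12 and 515 in KG8-02, with 588 to 824 in the other Tesa-inj libraries and 339 to 784 in Vehicle-inj. Both libraries that were highest for the complex I mRNAs were thus the lowest of their group for this list. The lowest sum of all 14 libraries was that of KG8-13 (Vehicle-inj), 339 CPM. There mt-Nd1 had 0.704 CPM, its lowest level at 46 days, and mt-Nd4 had 1.11. The part of these marker levels in the result was not tested. Markers of leukocytes, epididymal epithelium, blood and smooth muscle had no row at 46 days and were not analysed there, and of 4 endothelial markers Vwf alone had a row, with 29.2 CPM in KG8-12, 22.1 in KG8-02 and 44.4 to 70.7 in the other libraries. In bulk RNA, fewer cells of a type and less RNA per cell cannot be told apart.

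At 24 h the same lists could be read in more depth. Sperm markers (12 of 12 in the table, the most abundant being Odf1) summed to 3299.9 CPM in Vehicle-inj 4, the library lowest for 6 of the 7 members, and to 4974 to 11194 in the others; the part of this was not tested. Leukocyte markers (11 of 11, led by Cd74) summed to 152 to 237 CPM in Tesa-inj and 140.3 to 289 in Vehicle-inj. Epididymal markers (5 of 11, led by Spink8) summed to 1549 to 2344 and 1299 to 3226. Blood markers (4 of 5, led by Hba-a2) summed to 64.7 to 147 and 53.5 to 269.9, smooth muscle markers (5 of 5, led by Tagln) to 26.8 to 77.3 and 11.9 to 35.6, and endothelial markers (2 of 4, led by Vwf) to 18.6 to 23.8 and 20.6 to 56.0. The part of these lists in the levels of complex I mRNAs was not tested.

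As a share of all counts at 46 days, the 3 members took 7.84 to 480.3 CPM of the library total in Tesa-inj, with a median of 12.8, and 4.44 to 54.9 in Vehicle-inj, with a median of 11.5. As a percent of the counts outside the 5 most abundant features, the medians were 0.0176 for Tesa-inj and 0.00742 for Vehicle-inj. By share of all counts, KG8-12 was the highest in Tesa-inj and KG8-14 the highest in Vehicle-inj, and the remaining libraries overlapped. Of the counts on the 5 mitochondrially encoded mRNAs in that table, the 3 members took 9.74% to 60.9% in Tesa-inj and 11.4% to 28.8% in Vehicle-inj.

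By summed counts at 46 days, mt-Nd4 ranked 530 of 3082 features in Tesa-inj and 2748 in Vehicle-inj, mt-Nd1 641 and 2930, and mt-Nd5 703 and 2312. The Tesa-inj sums are led by KG8-12, where the ranks were 37, 45 and 53. In single Tesa-inj libraries the median rank was 1362 for mt-Nd4, 1492 for mt-Nd1 and 1176 for mt-Nd5, and in Vehicle-inj 2854, 2811 and 2256. The ratio of mt-Nd5 to mt-Nd4 per kb had medians of 0.711 (Tesa-inj) and 1.85 (Vehicle-inj), with overlapping ranges of 0.483 to 2.12 and 0.697 to 7.81. That of mt-Nd1 to mt-Nd4 had a median of 1.08 in each group. The deposited counts were whole in 14 of 14 libraries for mt-Nd1, 10 of 14 for mt-Nd4 and 8 of 14 for mt-Nd5, so mt-Nd4 and mt-Nd5 may share some reads with other features.

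The other mitochondrially encoded mRNAs in the 46-day table were mt-Cytb, with a log2 fold change of 5.65, and mt-Co1, with 3.87, beside the rRNAs mt-Rnr1 with 0.70 and mt-Rnr2 with 0.67. Without KG8-12 these were 2.00 for mt-Cytb, -0.12 for mt-Co1, 0.10 for mt-Rnr1 and 0.078 for mt-Rnr2. The level of mt-Co1 was 3417 CPM in KG8-12, 17.2 to 42.2 in the other Tesa-inj libraries and 15.1 to 61.0 in Vehicle-inj, and as CPM of library totals its median was 18.2 in Tesa-inj, below the 56.5 of Vehicle-inj. None passed the adjusted threshold in edgeR's quasi-likelihood test. In TMM-scaled CPM and by rank within the library, mt-Cytb had 6 of 7 Tesa-inj libraries above every Vehicle-inj library, as had mt-Nd4. At least 6 were found for 0.209% and 0.523% of features. For mt-Co1, 1 of 7 was above in TMM-scaled CPM, and 73.7% of features had at least 1.

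The difference between the treatment effects at 46 days and at 24 h was tested for the 3 members in both tables. On the log2 scale mt-Nd4 differed by 5.80, mt-Nd1 by 5.44 and mt-Nd5 by 4.14, with standard errors of 1.67, 1.64 and 1.40. Without KG8-12 the differences were 2.35 (standard error 0.89), 1.99 (standard error 0.85) and 1.32 (standard error 0.73), and they were lower still without KG8-02 as well. On library totals without TMM they were 2.97 (standard error 1.29), 2.87 (standard error 1.27) and 1.85 (standard error 1.24). In edgeR's quasi-likelihood test 0 of the 3 passed (adjusted p = 0.772), as did 0% of 2680 features, of which 127 had an unadjusted p under 0.05.

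The nuclear-encoded partners of the complex I mRNAs were read from lists of genes. Of 37 nuclear complex I subunits, 36 were tested at 24 h, with 29 estimates above 0 and 7 below. Of all features tested, 47.8% had an estimate above 0. The subunits had a median log2 fold change of 0.28 (-0.02 over all features tested), with 0 called in edgeR. Those with the smallest p were Ndufs8 with 0.57 (standard error 0.24), Ndufb5 with 0.69 (standard error 0.31) and Ndufa3 with 0.64 (standard error 0.30). The 7 mitochondrially encoded subunits had a median of -0.34 in the same fit, and the difference between nuclear and mitochondrial subunits was not tested. At 46 days 2 subunits were tested, Ndufa13 with 0.54 and Ndufb2 with 0.14. Of 14 assembly factors, 10 were tested at 24 h, 5 above and 5 below 0, with a median of 0.12, led by Timmdc1 with 1.03, Foxred1 with 0.50 and Tmem126b with 0.53; at 46 days Acad9 had -0.20. Of 26 genes that transcribe, process or maintain the mitochondrial genome, 20 were tested at 24 h, 10 above and 10 below 0, led by Ssbp1 with 0.86, Polg with 0.77 and Fastk with 0.63, and 0 at 46 days.

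Features whose log2 CPM followed the mean of the members across libraries were listed as a description, with mitochondrially encoded features left out of the ranking. Of those left out, mt-Cytb had a Spearman correlation of 0.98 at 46 days, while mt-Co1 had 0.41, mt-Rnr1 0.42 and mt-Rnr2 0.37. At 24 h mt-Co1 had 0.98 and the other mRNAs outside complex I had 0.86 to 0.95, while mt-Rnr1 had 0.55 and mt-Rnr2 0.43. Over the 14 libraries at 46 days, of the 2859 features ranked, the highest Spearman correlation was that of RP23-8J15.4, 0.95 (Pearson 0.98, and 0.86 without KG8-12 and KG8-02), with 1071 CPM in KG8-12, 69.8 in KG8-02 and 2.81 to 20.5 in the others. Next came Actg1, Myo9a and Gm24407 with 0.82 each and Pdxdc1 with 0.82. Over the 8 libraries at 24 h, of 13737 features ranked, they were Cox5a, Ostc, Fam209 and RP23-2A21.1 with 0.98 each and Plekhb2 with 0.95, which tied with others. These libraries share depth and scaling with the members.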

How the data were processed

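The authors trimmed reads with Trim Galore 1.16 and quantified them with Salmon 0.11.2, using strand, on GENCODE M18 transcripts, piRNA precursors and repeat families (GRCm38). The deposited values are estimated counts per feature, not normalized. Here they were rounded to whole numbers and scaled by TMM over all features of a table. The test was edgeR's quasi-likelihood test (edgeR 4.0.16, R 4.3.3) on features above 20 counts in 6 or more libraries (46 days) or in 4 or more (24 h); p-values were adjusted by Benjamini-Hochberg over all features tested, with a threshold of 0.05. Adjustment within a class of features was not used here, and can give smaller adjusted p-values than those printed. Standard errors are the absolute log2 fold change over the square root of F. The difference between times was fitted over 22 libraries, on 2957 shared features. Alternatives used the exact test, DESeq2 1.42.0, limma 3.58.1, other scalings and filters, and left-out libraries. Left-out libraries were first fitted with the filter set again to 80% of the smaller group. After those results, and an earlier account of these data, had been seen, the filter was held at 6 or 4 libraries so that a single choice changed; this moved estimates at 46 days by at most 0.01 on the log2 scale and changed no call (0 under both). The members, lists, named genes and the grouping of libraries 11 to 14 were chosen with earlier results of these data known. Named genes were the members, other mitochondrially encoded genes, 3 genes per list with the smallest p and the 5 features most like the members; Lars2 was named after its values were seen. Levels per kb used RefSeq gene spans (GRCm38.p6), and ranks per coding length among all features were not run. The 7 listed nuclear copies of mitochondrial genes were not analysed here, nor were 8 serum libraries. All libraries were kept, and groups came from the labels. KG8-02 had the fewest features over 20 counts, 623, as its 5 most abundant features left 158820 counts for the rest. Python 3.11.15 with matplotlib 3.10.9 drew the plots, and version 1.17.8 of data.table read the files.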

Additional observations from a re-analysis of the deposited data

Results flagged for a closer look

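In 5 of 28 groups of libraries examined, the highest library was set apart from the next by most of the group's range. The cutoff is meant to be passed by chance in about 1 in 20 groups of normally distributed values, and its rate for values like these was not measured. KG8-12 gave 4 of these 5 among the Tesa-inj libraries at 46 days, with 491 CPM of mt-Nd1 (next 38.4), 627 CPM of mt-Nd4 (next 51.2), 401 CPM of mt-Nd5 (next 40.7), and 0.0480% of all counts on complex I mRNAs (next 0.00229%). These 4 are values of the same library and are not independent. At 24 h, Tesa-inj library 1 had 3438 CPM of mt-Nd1, with 1549 CPM in the next library of its group and 4287 in the highest Vehicle-inj library.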

How the results depend on the processing

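At 46 days, 32 of 40 alternatives called 0 complex I mRNAs, and the other 8, all by the exact test of edgeR (all libraries, RefSeq gene names only, or 1 Tesa-inj library other than KG8-12 left out), called 3; log2 fold changes stayed above 0 in all 40, from 1.00 to 7.13 for mt-Nd4, 0.80 to 7.24 for mt-Nd1 and 0.34 to 6.00 for mt-Nd5, with adjusted p-values from 0.000224 to 1.00 for mt-Nd4. In the quasi-likelihood test, leaving out single libraries gave 2.37 to 6.06 for mt-Nd4, 1.92 to 5.65 for mt-Nd1 and 1.25 to 4.35 for mt-Nd5, the lowest without KG8-12. At 24 h, 18 of 18 alternatives called 0 members; leaving out single libraries gave -0.72 to 0.044 for mt-Nd1 and -0.70 to 0.084 for mt-Nd4, above 0 only without Vehicle-inj library 6 (0.044 and 0.084), while mt-Nd2 ran from -0.78 to -0.20, mt-Nd3 from -1.06 to -0.52, mt-Nd4l from -0.75 to -0.033, mt-Nd5 from -0.67 to -0.069 and mt-Nd6 from -0.83 to -0.12. The difference between times was called for 0 members in 25 of 25 alternatives. As a share of counts outside the 5 most abundant features, the median of complex I was 0.0176% in Tesa-inj (0.00128% of all counts) and 0.00742% in Vehicle-inj (0.00115%) at 46 days, 0.805% in Tesa-inj at 24 h and 1.15% in Vehicle-inj at 24 h, as that denominator is smaller. Fits with KG8-12 left out under other tests, the exact test with other Tesa-inj libraries left out or on RefSeq gene names, libraries 11 to 14 alone, the difference without KG8-02 and KG8-12, the other scales for single libraries and the filter set again were chosen after seeing the data. No paired analysis was possible because the groups compared share no library number. Low counts also limit the 46-day members, with 3 to 64 counts in 12 of the 14 libraries.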
